A study of Mus musculus with 81 samples.

Results

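The Hedgehog reception and Gli genes described here are 10 genes: the co-receptors Gas1, Cdon and Boc, the receptor Ptch1, the signal transducer Smo, the inhibitor Sufu, the transcription factors Gli1, Gli2 and Gli3, and the ligand-binding antagonist Hhip. They were chosen by name out of 22869 gene symbols and not by a rule on their values, though with earlier results of these data known. Each is represented by its transcript of highest mean level. All 10 were present in the table. Pancreas was taken at embryonic day 13.5 from wild-type embryos of CD1, an outbred mouse stock, and dissociated with trypsin. Cells were captured singly by microfluidics, and each cell was made into a library of its own. The labels describe 1 group, with no treatment and no named animal, so the 81 cells are 1 sample. No test was therefore made, and every SD is a spread over cells. Intervals given for shares of cells are exact Clopper-Pearson 95% intervals that cover counting error only.

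Hedgehog ligands act by binding Ptch1, which otherwise keeps Smo inactive. Gas1, Cdon and Boc bind the ligand together with Ptch1. Once Smo is active in the primary cilium, Sufu releases the Gli factors, of which Gli2 acts mainly as an activator and Gli3 mainly, after proteolysis, as a repressor. Gli1, Ptch1 and Hhip are themselves target genes, so their transcripts are used as readouts of signalling, and Hhip and Ptch1 limit it by binding ligand. In the early pancreas the epithelium is known to lack Sonic hedgehog, which the neighbouring stomach and duodenum express, and excess Hedgehog activity disturbs pancreas formation.

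Levels were read as RPKM, meaning reads corrected for library size and for the length of each transcript, so that they can be compared between genes. A gene was called detected in a cell at 1 RPKM or more. Most low values fell on steps taken as 1 read, from which a median of 3.52M reads per cell was estimated. In 77 cells the estimate lay between 1.65M and 5.37M reads. The exceptions were C3 with 19.66K reads, C61 with 72.18K, C94 with 195.8K and C43 with 416.8K, here called the 4 shallow cells. By transcript length, 1 read of any of the 10 genes exceeds 1 RPKM in C3 and C61. In C94 this holds for Gas1, Smo, Boc, Sufu and Gli1, while in C43 1 read of any of the 10 stays below 1 RPKM. For Ptch1 and Gli1 these statements rest on length alone, because few of their low values fell on steps of 1 read. Between 2372 and 6334 genes per cell reached 1 RPKM. In the cell of median depth 1 RPKM corresponds to about 11 reads of Gas1, 13.3 of Smo, 28.7 of Gli3 and 31.9 of Hhip. A value of 0 is given as listed at 0 and is not read as absence of the transcript. Gapdh, an enzyme of glycolysis that cells use in general, was also listed at 0 in 24 of 81 cells. Its median was 0.45 and its highest value 5.81 RPKM, whereas Actb was above 0 in all 81 cells with a median of 3900 RPKM. Gapdh was thus low throughout, so its zeros do not measure how often a well-expressed gene is missed. The cause of its low values was not tested.

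Since the 3 Gli genes and the pair Cdon and Boc are paralogs, the longest stretches of sequence that they share are shown first. They come from coding sequence of GENCODE vM21 transcripts, and capitals mark the bases identical in both genes of a pair.
Gli2: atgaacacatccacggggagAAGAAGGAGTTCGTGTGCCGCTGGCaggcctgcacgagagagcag
Gli3: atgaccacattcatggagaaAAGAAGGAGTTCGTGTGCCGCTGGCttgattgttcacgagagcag
Gli1: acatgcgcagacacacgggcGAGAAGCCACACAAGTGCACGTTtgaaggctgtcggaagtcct
Gli2: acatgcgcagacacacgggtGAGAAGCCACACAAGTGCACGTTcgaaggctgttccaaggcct
Cdon: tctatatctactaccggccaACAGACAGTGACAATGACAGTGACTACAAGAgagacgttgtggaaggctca
Boc: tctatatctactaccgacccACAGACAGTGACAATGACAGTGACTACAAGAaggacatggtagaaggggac
The longest identical run was 25 bases between Gli2 and Gli3, 23 between Gli1 and Gli2, 14 between Gli1 and Gli3, and 31 between Cdon and Boc. No 50-base window of the Gli2, Gli3, Cdon, Boc, Ptch1 or Sufu transcript occurred in a transcript of another gene. The share of such windows was 1.40% for Hhip, 2.33% for Smo, 5.76% for Gli1 and 17% for Gas1, so the Gas1 level is the one most open to how reads matching several genes were counted.

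The 10 genes spanned the range from near-uniform detection to none. Gas1 was detected in 76 of 81 cells, Gli3 in 53 and Smo in 44. Boc was detected in 30 cells, Cdon in 25, Gli2 in 21 and Ptch1 in 15. Sufu was detected in 2 cells, Gli1 in 1 and Hhip in none. Thus 3 of the 10 genes were detected in at least 50% of cells, against 13.1% of all gene symbols. This order of the 10 genes was the same at a threshold of 0.5 RPKM. Cdon and Gli2 were level at 38 cells each when any value above 0 counted and at 15 cells each at 5 RPKM. At 10 RPKM Gli2 (11 cells) came before Cdon (5 cells), and Gli1 and Hhip were both at 0 cells.

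**Figure D1:**
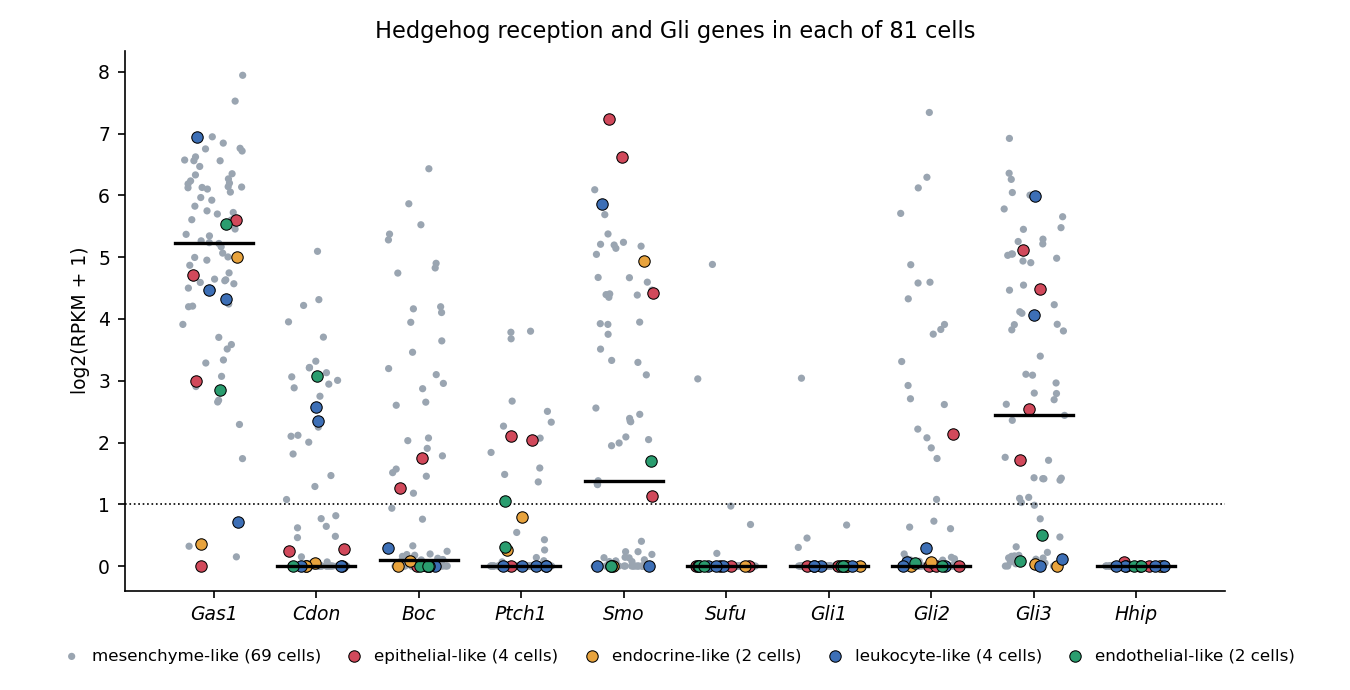
Level of each gene in each cell, as log2(RPKM + 1). Each point is 1 cell coloured by its class, bars are medians over the 81 cells, and the dotted line is the detection threshold of 1 RPKM. Gas1 lies above the line in 76 cells, while most cells lie at or near 0 for Ptch1, Sufu, Gli1 and Hhip.

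**Figure D2:**
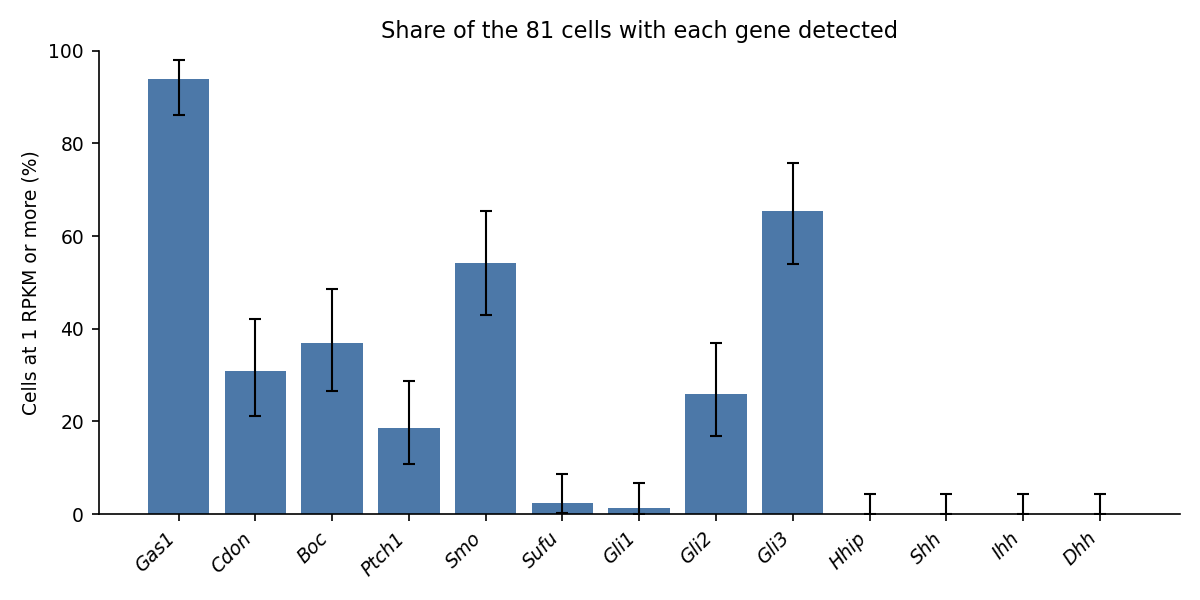
Percent of the 81 cells at 1 RPKM or more for the 10 genes and, at the right, for the 3 Hedgehog ligands, which were detected in 0 cells. Error bars are exact 95% intervals. The interval of Gas1 (86.2 to 98.0%) lies above that of every other gene shown.

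Gas1, a GPI-anchored co-receptor first known as a growth arrest gene, lies on chromosome 13 (60275766 to 60278896, minus strand, mm9). Over the 81 cells it ran from 0 through a median of 36.3 to 245.5 RPKM in C28, with a mean of 47.2 ± 42.9 RPKM (SD, n = 81 cells). It reached 10 RPKM in 66 cells. Of all gene symbols, 2.23% were detected in at least as many cells. The 5 cells below 1 RPKM were C43, listed at 0, C67 at 0.109, C59 at 0.249, C24 at 0.276 and C31 at 0.645 RPKM. These were 1 epithelial-like, 2 mesenchyme-like, 1 endocrine-like and 1 leukocyte-like cell, and C43 was one of the shallow cells.

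The 2 other co-receptors, the immunoglobulin and fibronectin repeat proteins Cdon and Boc, were found in fewer cells and at lower levels. Boc (chromosome 16, 44485158 to 44558983, minus strand) ran from 0 through a median of 0.076 to 85.4 RPKM in C41, with 37% of cells detected (26.6 to 48.5%). Cdon (chromosome 9, 35259661 to 35315237, plus strand) was listed at 0 in 43 cells and reached 33.2 RPKM in C18, with 30.9% of cells detected (21.1 to 42.1%). The intervals of these 2 genes overlap. In the shallow cell C3 the Cdon value of 7.04 RPKM corresponds to about 1 read (0.998 by the estimate).

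At least 1 co-receptor was detected in 78 of 81 cells (96.3%, 89.6 to 99.2%). Gas1 was the only co-receptor in 35 cells, and all 3 were detected together in 12 cells, each of them mesenchyme-like. Cdon and Boc were found together in 12 of the 66 mesenchyme-like cells of ordinary depth, where independent detection would give 8.91. Their levels correlated weakly across these cells (Pearson r = 0.172, Spearman rho = 0.127).

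Ptch1, the 12-pass receptor and a Hedgehog target, was detected in 15 of 81 cells (18.5%, 10.8 to 28.7%). It lies on chromosome 13 (63612841 to 63666828, minus strand) and was listed at 0 in 57 cells. Where detected its median was 3.32 RPKM, and 3 cells were above 10 RPKM: C8 at 12.9, C91 at 12.8 and C14 at 11.8 RPKM. No cell reached the median of Gas1. Of all gene symbols, 32.9% were detected in at least as many cells as Ptch1.

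Smo, the 7-pass protein that Ptch1 restrains, was detected in 44 of 81 cells (54.3%, 42.9 to 65.4%). Its transcript spans chromosome 6 from 29685497 to 29711366 (plus strand). Its levels ran from 0 in 25 cells through a median of 1.6 to 150.7 RPKM in C95, and its mean was 12.7 ± 23.7 RPKM. Smo was detected without Ptch1 in 35 cells, Ptch1 without Smo in 6, and both in 9. In the mesenchyme-like cells of ordinary depth both were found in 6 of 66, where independent detection would give 6.36.

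Gli3, the main Gli repressor, was the most widely detected Gli gene, at 53 of 81 cells (65.4%, 54 to 75.7%). The gene is on chromosome 13 (15555556 to 15821858, plus strand). Its levels ran from 0 through a median of 4.42 to 120.4 RPKM in C7, with C76 at 81.1 and C89 at 75.6 RPKM next. The mean was 15.6 ± 23.2 RPKM, and 31 cells reached 10 RPKM.

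Gli2, the main Gli activator, was detected in 21 cells (25.9%, 16.8 to 36.9%), an interval below that of Gli3. From chromosome 1 (120730638 to 120950196, minus strand), it was listed at 0 in 43 cells, and its median where detected was 12.5 RPKM, close to the 15.7 RPKM of Gli3 where detected. The mean of 6.64 ± 22 RPKM rests on few cells: C50 alone, at 161.4 RPKM, held 30% of the summed level. C37 followed at 77.4, C84 at 68.7 and the shallow cell C61 at 51.3 RPKM.

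Gli1, which Hedgehog signalling induces, was detected in 1 of 81 cells (1.23%, 0.0313 to 6.69%). The gene is on chromosome 10 (126766938 to 126778635, minus strand). The value was 7.23 RPKM in C29, which is in the mesenchyme-like class with Col1a2 at 86.9 RPKM but also held the epithelial marker Epcam at 13.3 RPKM, with Cdh1 listed at 0. Gli1 was at 0.585 RPKM in C63, 0.369 in C41, 0.233 in C62 and 0 in the other 77 cells. In C29 Gas1 was at 37.5, Gli3 at 29.1, Boc at 6.32 and Smo at 4.09 RPKM, while Ptch1 and Hhip were listed at 0. The single cell with Gli1 thus had no detected Ptch1.

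Sufu, which holds Gli proteins in the cytoplasm, was at 28.5 RPKM in C77 and 7.17 RPKM in C76. It was at 0.96 in C14, 0.594 in C8 and 0.153 in C15, and listed at 0 in the other 76 cells. It lies on chromosome 19 (46471408 to 46561150, plus strand) and has 2 transcript rows. Summing both rows raised the count from 2 to 4 cells. C77 and C76 stood in the same plate row. C76 was thus the 1 cell with Sufu detected among the 14 that shared a row or column with C77, against 0 of the other 66. When any value above 0 counted, Sufu was in 1 of these 14 cells and in 3 of the other 66. An effect of plate position was not tested.

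Hhip was above 0 in 1 cell, the epithelial-like C82, at 0.048 RPKM or about 1.99 reads. Its transcript spans chromosome 8 from 82489750 to 82581907 (minus strand). With detection in 0 of 81 cells, its exact interval reaches 4.45%, and 3 counts, taken as the limit of a count of 0, would be 3.7%. The intervals of Sufu, Gli1 and Hhip overlap, and all 3 lie below the interval of Ptch1. For Sufu this holds for the transcript row used and at 1 RPKM. At 0.5 RPKM, or with both rows summed, Sufu was detected in 4 cells, and no interval was computed for these settings.

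Readouts of signalling were therefore sparse. Any of Ptch1, Gli1 and Hhip was detected in 16 of 81 cells (19.8%, 11.7 to 30.1%), and 2 or more of them in none. With Gli1 in 1 cell and Hhip in 0, this last count had little room to differ. Independent detection would give 0.185 cells with both Ptch1 and Gli1. The count of none also depends on the threshold of 1 RPKM. When any value above 0 counts, C62 held Ptch1 at 3.81 and Gli1 at 0.233 RPKM. Likewise C63 held Gli1 at 0.585 and Ptch1 at 0.061 RPKM, and C82 held Ptch1 at 3.32 and Hhip at 0.048 RPKM. A co-receptor, Smo and a Gli gene were detected together in 33 cells (40.7%, 29.9 to 52.2%). Of these 33 cells, 6 also had Ptch1 detected and 7 had any of the 3 target genes. Both shares are near those over all 81 cells, where Ptch1 was detected in 15 and any of the 3 in 16.

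**Figure D3:**
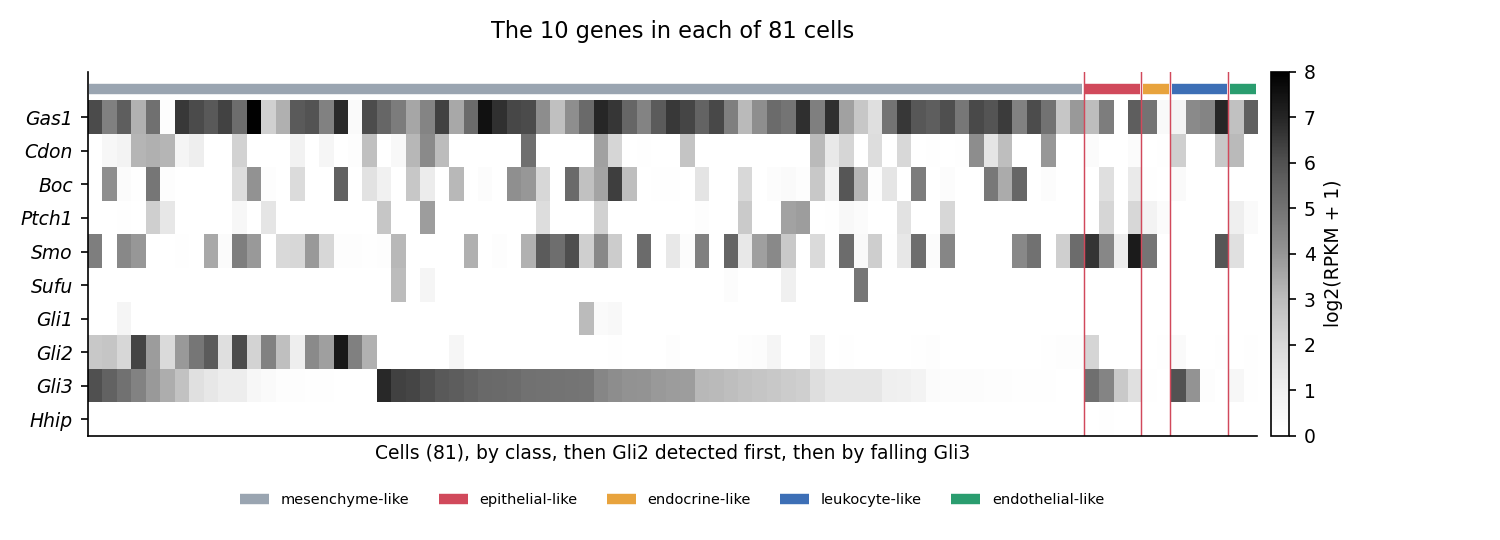
Levels of the 10 genes (rows) in the 81 cells (columns), with darker grey for a higher log2(RPKM + 1). Cells are ordered by class (coloured bar), then with the cells where Gli2 was detected first, then by falling Gli3. Gli3 was detected without Gli2 in 41 cells, Gli2 without Gli3 in 9, and both in 12.

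The median cell had 3 of the 10 genes detected, with a range of 0 to 6. The mesenchyme-like cells C21, C62 and C84 had 6. The endocrine-like C24 had none, at a depth outside the shallow range. In C50, where Gli2 was highest, Gli3 was listed at 0, whereas in C21 the levels were 13.2 RPKM for Gli2 and 14 RPKM for Gli3. Among the mesenchyme-like cells of ordinary depth Gli2 and Gli3 were detected together in 10 of 66, Gli2 alone in 9, Gli3 alone in 34 and neither in 13. Independent detection would give 12.7 cells with both, and the levels had a weak negative correlation (r = -0.219, rho = -0.298). Pairs of cells share depth and run, so these values are a description. All other pairs among the 7 widely detected genes had r between -0.165 and 0.172.

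The genes most like each were sought for the 6 of the 10 genes detected in at least 20 cells, so not for Ptch1, Sufu, Gli1 and Hhip. None of these 6 was among the 3 genes most like another of them. Over the 77 cells of ordinary depth and 6077 genes detected in at least 20 of them, the gene most like Gas1 was Matr3 (r = 0.475), followed by Tcf7l2 (0.406) and Rbms3 (0.402). For Smo these were Ptcd2 (0.531), Dync1i2 (0.427) and Snx27 (0.419). For Gli2 they were Skp2 (0.447), Klhl23 (0.44) and Vezf1 (0.423), and for Gli3 Jun (0.407), Tmed4 (0.393) and Polr1a (0.383). For Boc they were l7Rn6 (0.489), Slc7a10 (0.36) and Lrp3 (0.36), and for Cdon Pla2g4a (0.41), Ankmy2 (0.373) and Lrrc42 (0.368). Each of these values is among the 3 highest of 6077 correlations over 77 cells, and such a selection gives high values among unrelated genes too. Whether any exceeds that level was not tested. Spearman rho for the listed pairs ran from 0.254 (Gli2 and Klhl23) to 0.499 (Gli2 and Skp2). Among the 6 Hedgehog genes themselves the highest r was 0.162, for Gas1 and Boc.

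To compare cell types, cells were clustered without the 10 genes and without other Hedgehog pathway genes, and clusters were named from marker genes. There were 69 mesenchyme-like, 4 epithelial-like (C43, C47, C82 and C95), 2 endocrine-like (C24 and C56), 4 leukocyte-like and 2 endothelial-like cells. The class names are rebuilt and not the authors'. The summed level of the 12 epithelial markers had a median of 0 RPKM in mesenchyme-like cells (highest 366.7) and of 803.3 RPKM in epithelial-like cells (lowest 613.6). The 22 mesenchyme markers summed to 415.5 to 3329 RPKM in mesenchyme-like cells and to 235.8 to 2709 RPKM in the 6 epithelial- and endocrine-like cells, so their RNA was present on both sides, and its part in the results below was not tested. C91, within the mesenchyme-like class, held Epcam at 27.6, Cdh1 at 86 and Neurog3 at 258.0 RPKM beside Col1a2 at 55.3 RPKM.

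On average Smo was higher and Gas1 lower in the 6 epithelial- and endocrine-like cells than in the 69 mesenchyme-like cells. Median depth was 4.55M reads in epithelial-like, 3.77M in endocrine-like and 3.51M in mesenchyme-like cells. The 6 cells had 4694 (C47) to 5357 (C24) genes at 1 RPKM, against a median of 4081 over all cells. The part of depth and gene number in the class differences, here and in the lists below, was not tested. On the log2(RPKM + 1) scale, which understates the change of low genes, 1 of the 9 genes that passed the filter of being above 0 in at least 3 cells was at least 1 higher. The background for this was 17.7% of 6625 genes not used for the clustering. Another 1 of the 9 was at least 1 lower, against a background of 4.66%. Hhip did not pass the filter. With 1 of 9 genes in each direction, the counts do not set the genes apart from these backgrounds.

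Smo stood at 150.7 RPKM in C95, 97.8 in C47, 20.5 in C82 and 1.20 in the shallow C43. It was at 29.6 RPKM in the endocrine-like C56 and listed at 0 in C24. In the mesenchyme-like cells it ran from 0 through a median of 1.6 to 67.2 RPKM, with 37 of 69 detected. C95 and C47 were above every mesenchyme-like cell, and the other 4 lay within their range. The mean log2 level was 4.06 ± 2.92 (SD, n = 6 cells) against 2.01 ± 2.09 (n = 69), a difference of 2.05 that was smaller than the SD of either group. Leaving out each of the 6 cells in turn gave 1.41 (without C95) to 2.86 (without C24). When each cell was instead named by its highest marker score, with 7 cells against 34, the difference was 1.04.

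Gas1 was at 47.8 RPKM in C95, 25.1 in C82, 6.96 in C47 and 0 in C43, and at 31 RPKM in C56 and 0.276 in C24. In the mesenchyme-like cells it ran from 0.109 through a median of 39.6 to 245.5 RPKM, so the groups overlap. The mean log2 level was 3.11 ± 2.44 against 5.09 ± 1.55, a difference of -1.98, above the SD of the mesenchyme-like cells and below that of the 6 cells. Without the shallow C43 the difference was -1.36 and without C24 it was -1.43. With cells named by marker score it was -0.83 and no longer reached 1.

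Cdon was below 1 RPKM in all 6 epithelial- and endocrine-like cells, with a highest value of 0.206 RPKM, and detected in 22 of 69 mesenchyme-like cells. Its difference was -0.88. With 6 cells the share allowed by the exact interval reaches 45.9%, above the 31.9% of the mesenchyme-like cells. Boc was at 2.35 RPKM in C82 and 1.39 in C95 and below 1 RPKM in the other 4, against 28 of 69 mesenchyme-like cells, with a difference of -0.95. Gli2 was at 3.41 RPKM in C47 and below 1 RPKM in the other 5, against 20 of 69, with a difference of -0.78. Each of these 3 differences was below the SD of the mesenchyme-like cells, and their ranges overlapped.

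Gli3 was detected in all 4 epithelial-like cells, at 33.7 RPKM in C47, 21.3 in C82, 4.81 in C43 and 2.27 in C95. In the endocrine-like C56 it was at 0.029 RPKM and in C24 it was listed at 0. All 4 epithelial-like values lay within the range of the mesenchyme-like cells, whose median was 5.14 RPKM with 47 of 69 detected. The difference was -0.33 with both endocrine-like cells and 0.81 with the epithelial-like cells alone.

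Ptch1 was at 3.32 RPKM in C82 and 3.11 in C95, at 0.73 in C56 and 0.203 in C24, and listed at 0 in C47 and C43. The mesenchyme-like cells had 12 of 69 detected, C91 at 12.8 RPKM among them, and the difference was 0.42. With C91 moved to the epithelial side, a move chosen after seeing the data, the Ptch1 difference was 0.89. Across all cells, 5 held both Epcam and Cdh1 at 10 RPKM or more: C43, C47, C82, C91 and C95. Ptch1 was detected in 3 of these 5 and in 12 of the other 76, and Gli3 in 5 of 5 and 48 of 76. This grouping was chosen after its values were seen.

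The remaining classes were too small to compare. In the 4 leukocyte-like cells Gas1 was at 122.5, 21.3, 19.1 and 0.645 RPKM, Gli3 reached 62.8 RPKM in C31 and 15.7 in C36, and Smo reached 57.3 RPKM in C2. Boc and Ptch1 were detected in none of the 4. In the 2 endothelial-like cells Gas1 was at 45.4 and 6.22 RPKM and no Gli gene was detected.

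**Figure D4:**
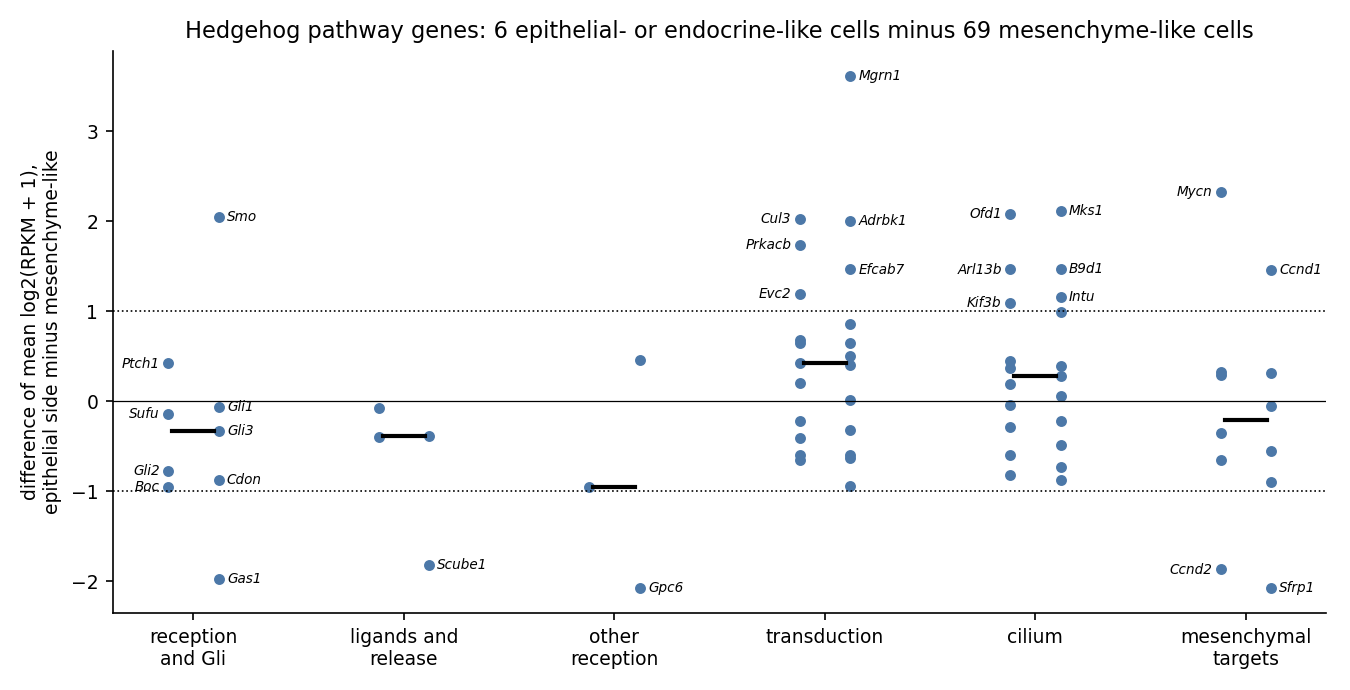
Difference of mean log2(RPKM + 1) between the 6 epithelial- and endocrine-like cells and the 69 mesenchyme-like cells for genes above 0 in at least 3 cells, by list. Short bars are medians, dotted lines mark a difference of 1 either way, and genes at or past these lines and the reception and Gli genes are named. Smo (2.05) and Gas1 (-1.98) are the genes past the lines in the first column.

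Among the 69 mesenchyme-like cells, detection was compared by cell cycle state, cell number and depth. Cells with at least 5 of 25 G2/M genes at 10 RPKM (40 cells) had Gli2 detected in 37.5% (22.7 to 54.2%), and the other 29 cells in 17.2% (5.85 to 35.8%). Boc went the other way, with 32.5% (18.6 to 49.1%) against 51.7% (32.5 to 70.6%). The intervals overlap in both. The first group was also deeper, with a median of 3.77M against 3.13M reads, and the part of depth in this was not tested. Gas1 was detected in 39 of 40 and 28 of 29 cells, and Gli3 in 26 of 40 and 21 of 29. Between cells numbered 1 to 48 and 49 to 96, Cdon was detected in 14 of 33 and 8 of 36, and Gli2 in 7 of 33 and 13 of 36. Between the shallower and deeper cells of ordinary depth, Gli3 was detected in 19 of 33 and 25 of 33, and Boc in 11 and 17. Cdon was detected in 8 and 13 of these cells, Gli2 in 9 and 10, and Ptch1 in 6 and 6. By cluster, Ptch1 was detected in 0 of 12 cells of one mesenchyme-like cluster (0 to 26.5%) and in 7 of 26 cells of the largest (11.6 to 47.8%). The exact intervals overlap in each of these comparisons.

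The ligands themselves were not detected. Shh and Dhh were listed at 0 in all 81 cells, and Ihh was at 0.106 RPKM in C12 and 0.089 in C60. Of the 50-base windows, 23.6% for Shh, 23.0% for Dhh and 0% for Ihh occurred in transcripts of other genes. The zeros of Shh and Dhh are thus open to how reads matching several genes were counted. For each of the 3, detection in 0 of 81 cells has an exact interval that reaches 4.45%. Of the 9 genes for ligands and their release, 1 was detected in at least 50% of cells, against 13.1% of all gene symbols, so this count is near the background. This was Scube1, a secreted protein of a family that aids ligand release, at 48 cells and 10.4 ± 17.5 RPKM, with a difference of -1.83. Hhat, which palmitoylates the ligands, was detected in 34 cells at 7.19 ± 20.7 RPKM, and Disp1, which exports them, in 17 cells at 5.42 ± 15.1 RPKM. Scube3 was detected in 8 cells, with a difference of -0.40. Disp2, of the same family as Disp1, was above 0 in 2 cells, the endocrine-like C24 at 6.54 RPKM and C56 at 1.90 RPKM, so it did not pass the filter. Its difference was 0.74.

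Of 4 other reception genes, 2 were detected in at least 50% of cells (background 13.1%), both of them glypicans, cell surface heparan sulfate proteoglycans. Gpc3, which binds Hedgehog and limits it, was detected in 81 of 81 cells at 573.9 ± 312.9 RPKM, the highest level of any pathway gene examined. Its mean was 622.4 RPKM in mesenchyme-like and 350.7 RPKM in epithelial- and endocrine-like cells, a difference of -0.96. Gpc6 was detected in 60 cells, with a difference of -2.07, and in 2 of the 6 epithelial- and endocrine-like cells. Gpc4 was detected in 14 cells, with a difference of 0.46. Lrp2, an endocytic receptor, was listed at 0 throughout.

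Of 24 transduction genes, 9 were detected in at least 50% of cells, against 13.1% of all gene symbols. Of the 23 that passed the filter, 6 were at least 1 higher in the epithelial- and endocrine-like cells (background 17.7%) and 0 were at least 1 lower (background 4.66%). The median difference was 0.43 against 0.08 over all 6625 genes. Csnk1a1, a kinase that phosphorylates Smo and Gli proteins, was detected in all 81 cells at 135.8 ± 106.3 RPKM. Prkar1a, a regulatory subunit of protein kinase A, was detected in 76 cells at 58.6 ± 67.2 RPKM. Mgrn1, a ubiquitin ligase that acts on Smo, differed by 3.61, with 6 of 6 and 34 of 69 cells detected. Cul3, the scaffold of a ligase that degrades Gli proteins, differed by 2.03, and Adrbk1 (Grk2), a kinase of Smo, by 2.01.

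Of 21 genes of the primary cilium, 1 was detected in at least 50% of cells (background 13.1%). At least 1 higher in the epithelial- and endocrine-like cells were 6 of the 21 (background 17.7%) and at least 1 lower 0 (background 4.66%), with a median difference of 0.29. Ift52, of the intraflagellar transport complex, was detected in 33 cells at 14.8 ± 33.9 RPKM. B9d1, Mks1 and Ofd1, of the ciliary base, differed by 1.48, 2.12 and 2.09, and Tulp3, which carries receptors into the cilium, by -0.22. Mks1 was detected in 2 of the 6 cells, so its difference rests on those.

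Of 15 genes listed as Hedgehog targets in mesenchyme, 5 were detected in at least 50% of cells (background 13.1%). Among the 12 that passed the filter, 2 were at least 1 higher (background 17.7%) and 2 at least 1 lower (background 4.66%). Sfrp1, a secreted Wnt inhibitor, was detected in 78 cells at 126.0 ± 105.2 RPKM, with a difference of -2.07. The cyclin Ccnd2 was detected in 77 cells at 56.4 ± 50.3 RPKM, with a difference of -1.87, and the cyclin Ccnd1 in 53 cells, with a difference of 1.46. Of the 50-base windows of Ccnd1, 27.2% occurred in transcripts of other genes. Mycn was detected in 14 cells and differed by 2.33. Foxf2 and Foxl1, forkhead genes that Hedgehog induces in gut mesenchyme, were listed at 0 in all 81 cells, and Foxf1a reached 0.405 RPKM in 1 cell. Several of these targets answer to other signals too.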

How the data were processed

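Per the labels' protocols, cDNA of 81 pancreatic cells was made with the SMARTer kit, followed by Nextera XT library preparation. CASAVA 1.8.2 and mm9 are listed per the submitters' processing notes. Aligner, counting tool and annotation: not given in the sources used here. In the deposited table there are 29510 transcript rows with 1 value per cell. Its unit is not stated. The deposited values were read as RPKM computed by the authors. Low values times transcript length fell within 0.15 of whole reads for a median of 78.7% of values per cell (lowest 74.4%). In each cell the step of 1 read was chosen to bring this share near its highest. The share is therefore no independent check of the unit, and its level without such a choice was not computed. For Ptch1 and Gli1 few values fell near whole reads, so no read counts are given for them. Of a gene's transcript rows, the one of highest mean was used. GENCODE vM21 served for lengths and sequences only, and coordinates are those of the file (mm9, counted from 1).

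Genes above 0 in at least 3 cells, without the Hedgehog lists and a random 50% of genes outside the marker lists, gave 1000 genes of high variance, 10 principal components and 10 Ward clusters. Clusters were named from the marker list that had the largest share of its genes, and 3 or more, at 10 RPKM in 50% or more of the cells. No doublet caller was run on 81 cells. Differences are of mean log2(RPKM + 1), and 1 or more was called. Intervals given for shares are exact Clopper-Pearson 95% intervals, and a limit of 3 counts is given beside the interval of Hhip. Reads carry no molecular identifiers, so they do not count independent molecules. The cells are 1 sample, so no p-value was computed. The read-step and difference steps were tested on simulated data. Tools were Python 3.11.15, numpy 2.4.6, scipy 1.17.1, pandas 2.3.3 and matplotlib 3.10.9.

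The 10 genes, the lists and markers were chosen with earlier results of these data known. Genes named beside the 10 are the ligands, the 3 genes of each pathway list with the largest mean and the 3 with the largest absolute difference, and the 3 genes most correlated with each gene detected in at least 20 cells. Others named (Lrp2, Foxf1a, Foxf2, Foxl1 and the markers given for C29 and C91) were chosen after their values were seen. 1 further gene of the lists was left out of every count and value, and is not reported here. Alternatives were other detection thresholds, pseudocounts, filters, cluster numbers, class names and transcript sums, and leaving out cells.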

Additional observations from a re-analysis of the deposited data

How the results depend on the processing

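The count of 3 genes detected in at least 50% of cells was 1 at a threshold of 5 RPKM and 1 at 10 RPKM, and 4 (with Boc) when any value above 0 counted. It did not change with 0.5 RPKM, without the 4 shallow cells or with summed transcripts. The median of 3 genes per mesenchyme-like cell was 5 when any value above 0 counted. With a pseudocount of 0.1 RPKM, 4 genes were at least 1 lower on the epithelial side (Gas1, Cdon, Boc and Gli2) and 2 higher (Ptch1 and Smo). With C91 moved to the epithelial side, 2 were lower (Gas1 and Boc). Leaving out C47 gave 2 (Gas1 and Gli2), and leaving out C82 or C95 gave 2 each (Gas1 and Boc). These moves of C91 and of single cells were chosen after seeing the data. Of the 14 alternatives that could move a gene's difference, Smo was at least 1 higher in 14 and Gas1 at least 1 lower in 13. The exception was cells named by marker score, where Smo differed by 1.04 and Gas1 by -0.83, and Boc was at least 1 lower. The 14 are not independent of each other. Cutting into 12 clusters gave the same 6 and 69 cells and moved no value, and several others left out a single cell of these 6. Other filters and summed transcripts could not move these genes' values. No paired analysis was possible because the cells form 1 group. Without the 4 shallow cells Gli3 was detected in 49 cells, Gas1 in 73 and Smo in 41, while Ptch1, Sufu, Gli1 and Hhip kept their counts. Depth limits single detections in C3, C61 and C94, where 1 read can pass 1 RPKM.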
